A study of Mus musculus with 7 samples.

Results

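Conventional dendritic cells type 1 (cDC1) from mouse CT-2A gliomas are described here as the cells that carry the name cDC1 in the authors' deposited cell table, 1864 of 28644 cells. They were compared with the 954 cells named cDC2 and the 1569 monocyte-derived dendritic cells (mo-DC) of the same tumours. CT-2A is a mouse glioma cell line, and the tumours grew in the brains of mice that carry floxed alleles of Siglece, a sialic acid-binding inhibitory receptor of myeloid cells. Mice with the Sall1CreERT2 driver (4 KO mice) were compared with mice of the same floxed strain without it (3 WT mice). The driver allele is B6;129-Sall1 tm5(cre/ERT2) and the floxed allele B6.129P2-Siglece tm1Bcgen. All 7 mice were 8 to 12 weeks old at engraftment and received 2.5 mg tamoxifen per injection from day 7, daily until day 21 and every other day from then on, so that the WT mice share the floxed alleles and the drug but not the driver. Live cells positive for CD45 or CD11b were sorted from the frozen and thawed tumour-bearing hemisphere, and each mouse gave 1 library of droplet single-cell RNA sequencing. Sall1 is a transcription factor of microglia and is not a cDC1 gene, so the model is meant to place the deletion in another cell type. Whether cDC1 carried the deletion was not tested.

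cDC1 are the dendritic cells that take up dying cells and present their proteins on MHC class I to CD8 T cells, a process called cross-presentation. The transcription factors Irf8 and Batf3 are needed for their development, Clec9a is the receptor by which they recognise dead cells, and Xcr1 is the receptor for a chemokine made by activated lymphocytes. On maturation they switch on the chemokine receptor Ccr7, leave the tissue and carry antigen to lymph nodes.

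KO replicates 1 to 4 gave 62, 446, 122 and 319 cDC1, and WT replicates 1 to 3 gave 258, 338 and 319. Together these cells held 27151929 unique molecular identifiers (UMIs, each standing for 1 captured RNA molecule), from 1197507 to 5777658 per mouse, with a median of 13792 per cell against 6439 in the cells named cDC2 and 9017 in mo-DC. Among the cDC1, 53 carried a barcode that also occurred in another library. By Xist and Y-linked RNA the females were KO replicate 1, KO replicate 2 and WT replicate 3, and the remaining 4 mice were male. The mouse is the replicate throughout, and p-values measure the spread between these mice.

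The levels of cDC1 markers describe the cells that carry the name. The name rests on expression in these same cells, so the levels do not test it. Levels are given in CPM (UMIs of a gene per 1e6 UMIs of the summed cells of a mouse). For single genes the CPM were scaled by TMM, a correction for differences in RNA composition, over the sums of the 3 types where types were compared and over the 7 cDC1 sums where genotypes were compared. Levels summed over a list of genes, and levels by cell cycle phase, were not scaled. Xcr1 stood at 298, 357, 327 and 360.3 CPM in cDC1 of KO replicates 1 to 4 and at 276, 391.8 and 417 CPM in WT replicates 1 to 3. It lay between 5.77 and 27.0 CPM in the cells named cDC2 and between 0.561 and 74.8 CPM in mo-DC, so the cDC1 of every mouse were above both. Clec9a was 183 to 321 CPM in cDC1, 21.2 to 68.4 CPM in cells named cDC2 and 2.81 to 44.7 CPM in mo-DC, again without overlap. Irf8 lay between 1256 and 1586 CPM in cDC1 and between 106 and 349 CPM in mo-DC, but overlapped with the cells named cDC2 at 757 to 1581 CPM. Batf3 was 119 to 193 CPM in cDC1 and was higher, at 197 to 319 CPM, in the cells named cDC2; mo-DC had 19.1 to 61.3 CPM. Of 18 cDC1 markers listed, 12 had their highest level among the 23 named types in cDC1 and 5 ranked second, among them Batf3 behind the cells named cDC2 and Irf8 behind plasmacytoid dendritic cells.

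The cells named cDC2 were not set apart from cDC1 by most markers of that subset. Of 12 cDC2 markers 9 could be compared with cDC1: Irf4 was counted as lower in cDC1 (by the 2-fold rule given with the gene by gene comparison), Tnfsf13b as higher and 7 as neither, while against mo-DC 10 of 11 were lower in cDC1. Mgl2, a lectin of type 2 dendritic cells, averaged 8.21 CPM in them, 12.0 CPM in cDC1 and 257 CPM in mo-DC. Sirpa, the signal-regulatory receptor used to sort cDC2, averaged 20.1, 8.38 and 175 CPM in the same order. Instead, the cells named cDC2 held 3795 CPM of Ccr7 and 5045 CPM of Fscn1, the actin-bundling protein of mature dendritic cells, where cDC1 had 44.0 and 14.7 CPM. Comparisons with these cells are therefore comparisons with Ccr7-high, Fscn1-high cells under the authors' name cDC2.

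**Figure D1:**
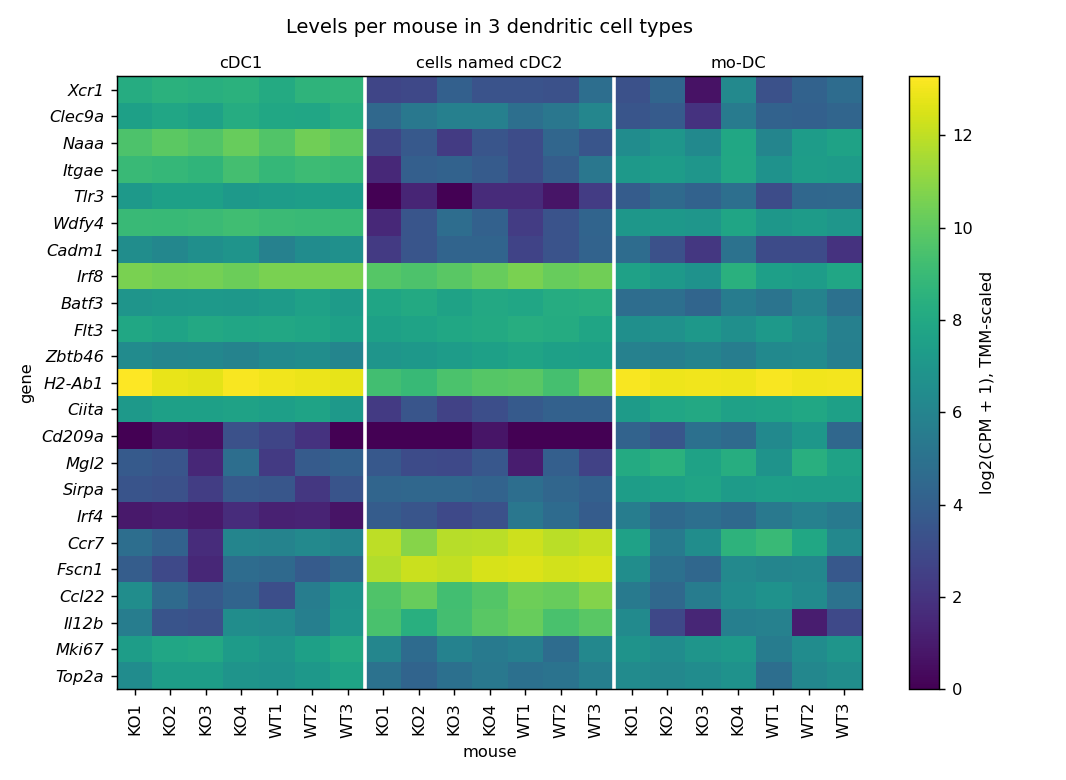
Levels of marker genes (rows) in the summed cells of each mouse (columns) for cDC1, cells named cDC2 and mo-DC, as colour on a log2(CPM + 1) scale. Xcr1, Clec9a and Naaa are high in all 7 cDC1 columns, whereas Ccr7 and Fscn1 are high in the cells named cDC2.

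The 3 types were set against each other gene by gene within each mouse. The names rest on expression in these same cells, so the differences are a description and carry no test. A gene was counted when its mean difference over the 7 mice was at least 2-fold on the log2(CPM + 10) scale and had the same sign in each of them. By this count 1070 of 8616 genes (12.4%) were higher in cDC1 than in the cells named cDC2 and 807 (9.37%) were lower. Against mo-DC, 204 of 8445 genes (2.42%) were higher and 402 (4.76%) lower. The genes higher than in both numbered 133 of 8109 (1.64%), or 272 with a pseudocount of 1 CPM in place of 10, and those lower than in both 106 (1.31%). The difference of the median gene was 0.14 on the log2 scale against cells named cDC2 and 0.08 against mo-DC.

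Among the 18 cDC1 markers, 12 were counted as higher and 2 (Nfil3 and Zbtb46) as lower than in cells named cDC2, and 15 as higher than in mo-DC. Naaa, a lysosomal amidase that is a known cDC1 marker, had one of the widest gaps, with 749 to 1360 CPM in cDC1 against 3.92 to 19.8 CPM in cells named cDC2 and 64.8 to 242 CPM in mo-DC. Its difference from the cells named cDC2 was 5.65 ± 0.15 (log2, mean ± SD over 7 mice). Ckb, the brain-type creatine kinase, was similar at 5.66 ± 0.18, with 871 to 1460 CPM in cDC1. Ppt1, a lysosomal thioesterase, differed by 4.97 ± 0.21 from cells named cDC2 and by 3.02 ± 0.46 from mo-DC. Against mo-DC the leading genes were Xcr1 (3.75 ± 0.85) and Clec9a (3.30 ± 0.46), followed by Gcsam (3.25 ± 0.52), Gpr141b (3.24 ± 0.70) and Ppt1. Rab7b, a small GTPase of the late endosome, was the third gene in rank among those higher than both, with 158 to 247 CPM in cDC1, 0 to 7.69 CPM in cells named cDC2 and 6.74 to 57.9 CPM in mo-DC.

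At the other end, S100a4, a calcium-binding protein of motile myeloid cells, was 14.4 to 96.3 CPM in cDC1 and 973 to 1671 CPM in mo-DC, a difference of -4.83 ± 0.76. Ifitm1, an interferon-induced membrane protein, followed at -4.19 ± 0.98, and the chemokine receptor Ccr1 at -3.63 ± 0.50. Il1r2, the decoy receptor for interleukin 1, differed by -3.55 ± 0.53. Tmem176b led the genes lower than in both types, with 0.892 to 12.4 CPM in cDC1 of the 7 mice. Clec7a, the receptor for fungal beta-glucan, had 9.69 to 47.3 CPM in cDC1, against 108 to 388 CPM in cells named cDC2 and 179 to 371 CPM in mo-DC. The interleukin receptor genes Il7r, Il2ra and Il2rg also belonged to the genes lower than in both.

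**Figure D2:**
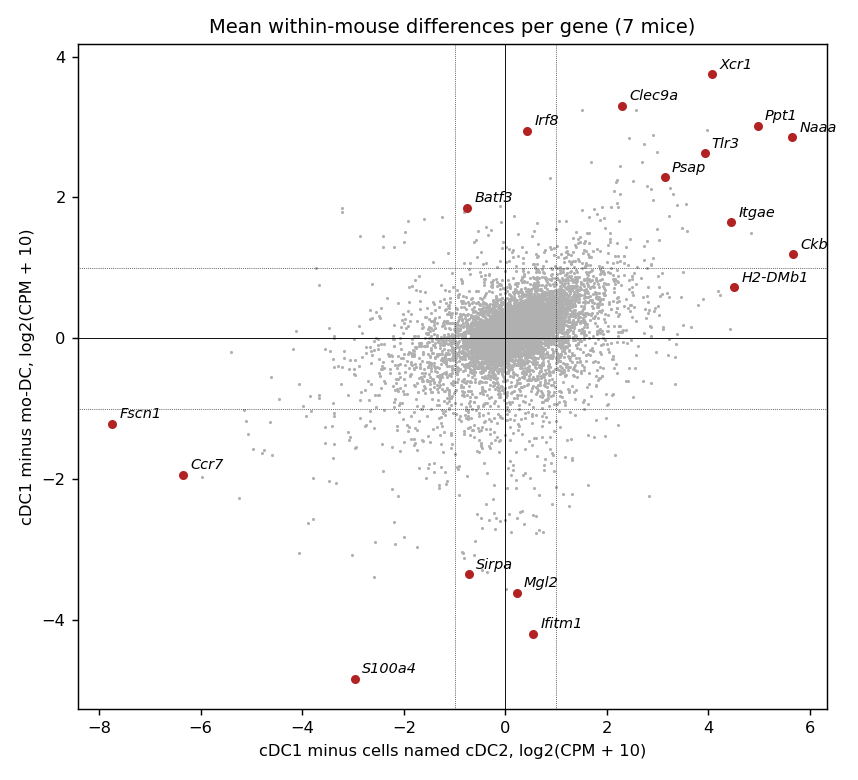
Each point is 1 gene; the x axis gives its mean within-mouse difference between cDC1 and cells named cDC2 and the y axis that between cDC1 and mo-DC, both on the log2(CPM + 10) scale over 7 mice. Xcr1, Naaa and Ppt1 lie far up and to the right, Fscn1 and Ccr7 far to the left and S100a4 far down.

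The counts of the lists that follow stand beside the shares over all genes, 12.4% higher and 9.37% lower than in cells named cDC2 and 2.42% higher and 4.76% lower than in mo-DC. Of the lineage factors, 3 of 21 were counted as higher and 4 as lower than in cells named cDC2, and 3 as higher and 5 as lower than in mo-DC. Flt3, the growth factor receptor of dendritic cells, overlapped between cDC1 (188 to 256 CPM) and cells named cDC2 (188 to 306 CPM) and was 54.2 to 139 CPM in mo-DC. Zbtb46, a factor of the conventional lineage, was 60.3 to 88.7 CPM in cDC1 and 121 to 217 CPM in cells named cDC2. Irf4, the factor of the cDC2 lineage, stayed between 0.653 and 2.23 CPM in cDC1 and reached 6.53 to 37.9 CPM in cells named cDC2 and 22.003 to 56.3 CPM in mo-DC.

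Genes of dead cell uptake and cross-presentation were more often higher than lower: 10 of 19 were higher and 2 lower than in cells named cDC2, and 8 of 21 higher and 5 lower than in mo-DC. Wdfy4, which is required for cross-presentation of cell-associated antigen, had 488 to 591 CPM in cDC1 against 1.92 to 26.1 and 123 to 223 CPM. The small GTPase Rab43, which takes part in the same pathway, had 211 to 288 CPM against 66.4 to 108 and 70.9 to 124 CPM. The scavenger receptor Cd36 had 82.4 to 174 CPM in cDC1 and no more than 29.3 CPM in any sum of the other types. Cybb, the NADPH oxidase subunit that slows lysosomal degradation, went the other way, with 11.2 to 27.7 CPM in cDC1 and 218 to 376 CPM in mo-DC. Ly75, the uptake receptor DEC-205, was 50.7 to 102 CPM in cDC1 and 540 to 757 CPM in the cells named cDC2.

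Of 20 MHC class I presentation genes, 2 were higher and 6 lower than in cells named cDC2, and 1 (Pdia3) was higher than in mo-DC. B2m, the light chain of MHC class I, was 1850 to 2594 CPM in cDC1 and 3920 to 5996 CPM in cells named cDC2, whereas Pdia3, an oxidoreductase of the peptide-loading complex, was 698 to 1018 CPM against 206 to 394 CPM. MHC class II genes divided the 2 comparisons: 11 of 15 were higher than in cells named cDC2 and 1 was lower, while against mo-DC none was higher and 3 were lower. H2-Ab1, a class II beta chain, had 6780 to 9933 CPM in cDC1, 496 to 1205 CPM in cells named cDC2 and 7891 to 9205 CPM in mo-DC. Ciita, the transactivator of class II genes, had 137 to 207 CPM in cDC1 against 3.85 to 16.6 CPM in cells named cDC2. Marchf1, the ubiquitin ligase that removes class II from the surface, was at 85.5 to 121 CPM against 0 to 5.57 CPM.

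Among chemokines and their receptors, 13 of 20 were lower in cDC1 than in mo-DC and 2 higher, and 5 of 17 were higher and 6 lower than in cells named cDC2. Cxcr3, the receptor for Cxcl9 and Cxcl10, stood out beside Xcr1, with 45.1 to 72.8 CPM in cDC1, 0 to 3.43 CPM in cells named cDC2 and 0 to 11.7 CPM in mo-DC. Ccl5 was 32.7 to 148 CPM in cDC1 and 2868 to 6312 CPM in cells named cDC2. Cxcl9 overlapped across all 3 types, with 169 to 433 CPM in cDC1. Il12b, a subunit of interleukin 12, varied widely among the cDC1 of the 7 mice, from 8.81 to 120 CPM, below the 329 to 1178 CPM of the cells named cDC2. Il15ra, which presents interleukin 15 to T cells, was 5.28 to 18.6 CPM in cDC1 against 218 to 286 CPM. Il1b lay between 109 and 711 CPM in cDC1 and between 1152 and 2566 CPM in mo-DC.

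All 25 genes of the maturation and migration list were counted as lower in cDC1 than in the Ccr7-high, Fscn1-high cells named cDC2. Fscn1 differed by -7.74 ± 0.48 and Ccr7 by -6.34 ± 0.93. Against mo-DC, 8 of 22 were lower and 2 higher, with a median difference of -0.85. Costimulation and checkpoint ligands were lower for 10 of 18 genes and higher for 4 against cells named cDC2. Against mo-DC they were lower for 3 of 14 and higher for 1. Cd80 was 10.3 to 29.8 CPM in cDC1 against 217 to 426 CPM in cells named cDC2, and Cd274 (PD-L1) was 23.5 to 71.4 CPM against 325 to 591 CPM. Btla, an inhibitory receptor that binds HVEM, was higher in cDC1 than in both other types, at 165 to 203 CPM against 27.4 to 84.0 and 49.9 to 99.0 CPM.

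Sensors of nucleic acids and microbes were higher for 7 of 19 genes and lower for 0 against cells named cDC2, with 3 higher and 3 lower of 20 against mo-DC. Tlr3, the endosomal receptor for double-stranded RNA, had 138 to 185 CPM in cDC1 against 0 to 4.15 and 7.64 to 27.9 CPM. Tlr11, the receptor for protozoan profilin, had 19.0 to 45.8 CPM against 0 to 3.92 and 1.09 to 5.50 CPM. Tlr2 was lower than in mo-DC, at 5.72 to 10.4 against 56.7 to 100.5 CPM. Proliferation genes were higher for 23 of 24 genes than in cells named cDC2, with a median difference of 1.80, and for 2 of 24 than in mo-DC, with a median of 0.83.

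Single cells showed how evenly the markers were spread. Because cDC1 were the deeper cells, each cell was thinned to 4078 UMIs, which left out 86 cDC1, 205 cells named cDC2 and 148 mo-DC below that depth. An Xcr1 UMI was then found in 65.3% of cDC1 (84.0% without thinning), against 3.20% of cells named cDC2 and 2.96% of mo-DC. T cells, which do not express Xcr1, had one in 0.737%, at a median of 4748 UMIs before thinning. Clec9a was found in 59.5% of cDC1 (86.5% without thinning), 11.7% of cells named cDC2, 3.59% of mo-DC and 0.309% of T cells. Both genes were found in 41.4% of thinned cDC1 and neither in 16.6%. Irf8 was found in 96.2% and Batf3 in 42.1%; the latter was 62.5% in cells named cDC2. Ccr7 was found in 4.78% of cDC1 (7.35% without thinning) and in 93.9% of cells named cDC2, so cells with a Ccr7 UMI were few among the cDC1; the share that free RNA gives for this gene was not measured. By mouse the Ccr7 share was 8.33%, 1.62%, 0.840% and 5.96% in KO replicates 1 to 4 and 7.48%, 4.91% and 6.67% in WT replicates 1 to 3.

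The authors' cell cycle calls placed 39.9% of cDC1 in S or G2M phase, against 5.35% of cells named cDC2, 19.6% of mo-DC and 2.77% of plasmacytoid dendritic cells. The share was the highest of the 4 dendritic cell types. The calls derive from cell cycle genes, so the 24 of 24 proliferation genes that were higher in S and G2M cDC1 are part of the call; over all genes 334 of 8127 (4.11%) were higher and 9 (0.111%) lower. The genes lower in cycling cDC1 included Ccr7, with 66.3 CPM in G1 and 13.2 CPM in S and G2M on average (difference -1.61 ± 0.85), the interferon-induced Ifitm1, Ifitm2, Ifitm3 and Ifitm6, Slfn5 (-1.21 ± 0.26), and Timd4, a receptor for phosphatidylserine on dying cells (-1.28 ± 0.51). None of the 18 cDC1 markers was counted either way. Xcr1 averaged 323 CPM in G1 and 343 CPM in cycling cDC1.

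The genotypes were then compared. cDC1 made up 4.40%, 8.41%, 2.57% and 5.45% of all cells in KO replicates 1 to 4 and 8.79%, 7.60% and 8.08% in WT replicates 1 to 3. The groups overlapped through KO replicate 2, at 5.21% ± 2.44 (SD, n = 4) against 8.16% ± 0.602 (n = 3; exact permutation test, two-sided, p = 0.114, adjusted over 3 shares 0.343; the smallest p that 35 divisions of the mice allow is 0.0286). T cells, which make up much of the denominator, were 43.5%, 50.2%, 79.9% and 60.6% of the KO libraries and 10.6%, 33.8% and 31.9% of the WT libraries. Of cDC1 and cells named cDC2 together, cDC1 were 63.3% ± 4.90 in KO and 67.7% ± 7.44 in WT mice (exact permutation p = 0.343, adjusted 0.514). Of all dendritic cells they were 33.6% ± 8.91 and 40.2% ± 9.88 (exact permutation p = 0.514, adjusted 0.514). The share of cDC1 in S or G2M phase was 38.9% ± 10.8 in KO and 36.6% ± 6.56 in WT mice and overlapped (exact permutation p = 0.771). The median mitochondrial content per cDC1 was 1.13% ± 0.0549 of UMIs in KO and 1.04% ± 0.0193 in WT mice, without overlap (exact permutation p = 0.0571).

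**Figure D3:**
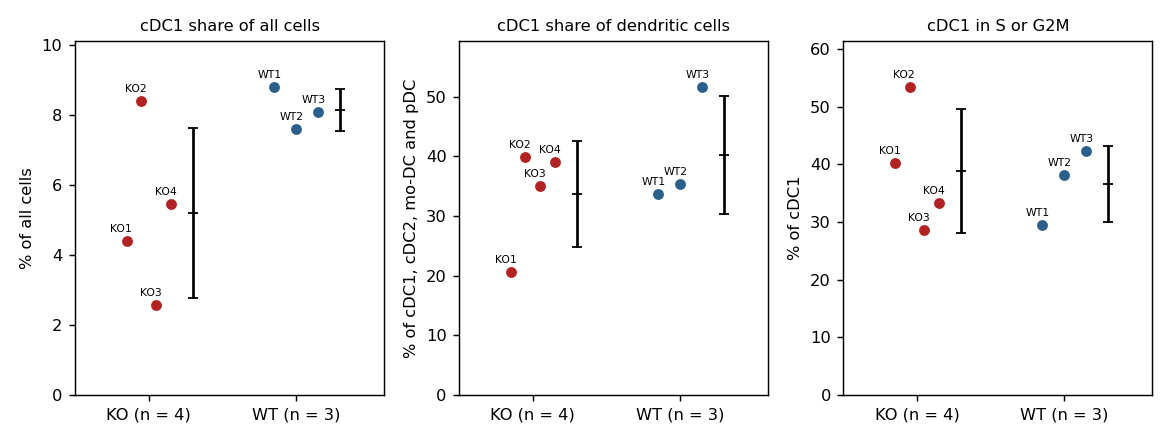
Shares by mouse, in percent, with 1 point per mouse, the mean as a line and the SD as bars, for 4 KO and 3 WT mice. The cDC1 share of all cells spans 2.57% to 8.41% in KO and 7.60% to 8.79% in WT mice, and in each panel the groups overlap.

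Siglece itself was low in cDC1: 6, 12, 1 and 7 UMIs in KO replicates 1 to 4 and 6, 10 and 5 in WT replicates 1 to 3. Scaled over the 3 types, this was 0.440 to 5.35 CPM in KO and 1.09 to 2.20 CPM in WT mice, too low for the filter on counts, and was not tested. Among the 23 types cDC1 ranked 17th for this gene; mo-DC held 57.6 to 96.1 CPM per mouse on the same scale.

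Expression was tested in cDC1 on summed UMIs with the quasi-likelihood test of edgeR. No gene of 11009 passed a Benjamini-Hochberg adjusted p of 0.05 (0.0%), while 642 (5.83%) had an unadjusted p below it, 325 (2.95%) higher and 317 (2.88%) lower in KO. DESeq2 called 15 genes. The 4 KO mice lay above the 3 WT mice for 365 genes (3.32%) and below them for 396 (3.6%), together 761 (6.91%).

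The lowest p-values belonged to genes of T cells. Cd3e, a chain of the T cell receptor complex, stood at 12.3, 17.7, 13.7 and 16.6 CPM in cDC1 of the KO and at 1.29, 1.88 and 4.14 CPM of the WT replicates (log2 fold change 2.62, SE 0.33, edgeR adjusted p = 0.0632). All KO mice lay above all WT mice. Il2rb, the beta chain of the interleukin 2 receptor (2.74), Cd3d (2.05), Cd3g (2.55) and the T cell kinases Lck (2.55) and Zap70 (3.09) followed the same order, with edgeR adjusted p between 0.196 and 0.213. Of 8 T cell markers all 8 were tested and higher in KO, 6 at an unadjusted p under 0.05 and none after adjustment. Their summed level was 50.1 to 73.2 CPM in KO and 9.93 to 21.7 CPM in WT mice, with the 5 genes Cd3e, Cd3d, Cd3g, Trac and Trbc2 at 38.4 to 54.6 and 4.00 to 16.7 CPM. In fits of the other types, Cd3e had a log2 fold change of 1.82 in cells named cDC2 and 2.60 in mo-DC. Of the T cell markers, 0 of 3 tested were lower in KO in cells named cDC2 (median 1.49). In mo-DC 1 of 8 was lower (median 1.22), and 0 were called in either type.

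A UMI of those 5 genes occurred in 11.3%, 23.5%, 36.1% and 33.2% of cDC1 in KO replicates 1 to 4 and in 1.55%, 13.6% and 12.5% in WT replicates 1 to 3. In all, 25 KO and 5 WT cDC1 had 5 or more such UMIs, and these held 58.9% and 40.1% of them. In KO replicate 1, 1 of 62 cDC1 held 84.8% of its 46 such UMIs, and in WT replicate 1, 1 of 258 held 83.9% of 16. The 4 libraries with the highest T cell shares were also the 4 with the highest CPM of these genes in cDC1; the part of T cell RNA in this result was not tested. Without the cDC1 that held such a UMI, a step added after these values were seen, no gene of 10757 was called, with 567 at an unadjusted p under 0.05. Il2rb then had a log2 fold change of 2.51 (edgeR adjusted p = 0.692). Its unscaled level was 1.91, 5.99, 4.37 and 3.64 CPM in KO replicates 1 to 4 and 0.262, 0.706 and 1.19 CPM in WT replicates 1 to 3. With all cDC1 its TMM-scaled level was 8.56 to 12.8 CPM in KO and 0.257 to 2.48 CPM in WT mice. Without the cDC1 that held such a UMI, Ctsw, a protease of cytotoxic lymphocytes, had a log2 fold change of 1.88 (edgeR adjusted p = 0.867). Its unscaled level was then 0, 4.38, 6.56 and 4.00 against 0.523, 0.941 and 1.66 CPM.

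**Figure D4:**
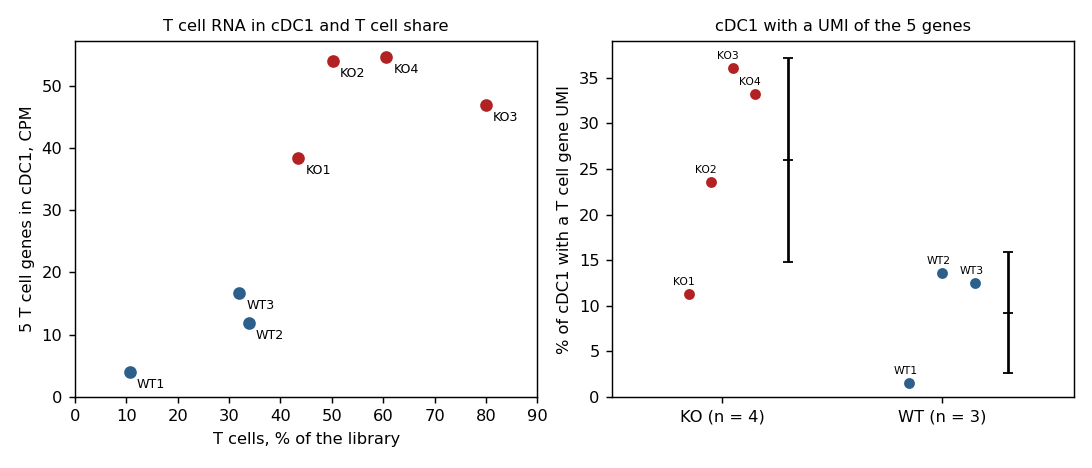
Left, the summed CPM of 5 T cell genes in the cDC1 of each mouse against the T cell share of its library in percent; right, the percent of cDC1 with a UMI of these genes, with 1 point per mouse, the mean as a line and the SD as bars. The 4 KO mice lie at 38.4 to 54.6 CPM and the 3 WT mice at 4.00 to 16.7 CPM.

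Other genes with low p-values were not T cell genes. Cirbp, a cold-induced RNA-binding protein, had 112, 152, 115 and 73.0 CPM in KO replicates 1 to 4 and 40.6, 49.4 and 38.9 CPM in WT replicates 1 to 3 (log2 fold change 1.39, SE 0.22, edgeR adjusted p = 0.213). Cox7a2l, which joins respiratory chain complexes, had 268, 269, 267 and 279 CPM against 191, 177 and 168 CPM (0.60, SE 0.10, edgeR adjusted p = 0.213). The KO and WT mice did not overlap for either gene, and both had similar fold changes without the cDC1 that held a T cell UMI, 1.44 and 0.59. In cells named cDC2 and in mo-DC the log2 fold changes were 0.99 and 1.16 for Cirbp and 0.54 and 0.76 for Cox7a2l. Values that are not whole held 12.3% of the Cox7a2l UMIs in cDC1. Dynll1, a dynein light chain, was 199, 168, 199.8 and 205 CPM in KO and 324, 304 and 256 CPM in WT replicates (-0.61, SE 0.12, edgeR adjusted p = 0.283). Ly9, a SLAM family receptor, averaged 16.2 CPM ± 2.32 in KO and 29.6 CPM ± 5.15 in WT mice (edgeR adjusted p = 0.337). For 2310040G24Rik the values were 18.4, 20.8, 14.5 and 19.98 against 35.5, 33.7 and 31.6 CPM (-0.84, edgeR adjusted p = 0.213). For these 3 genes the highest KO mouse was below the lowest WT mouse. In mo-DC their log2 fold changes were -0.67, -0.14 and -0.42 in the same order. Only Dynll1 was tested in cells named cDC2, at -1.02.

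The list of type I interferon response genes was examined in more detail. It was chosen with earlier results of these data known, so its counts beside the shares over all genes are a description. Its genes were measured in the same mice, so a count of genes is not a count of independent results. Type I interferon acts through its receptor and induces antiviral genes, many of which carry a short response element near their start sites. Of 40 listed genes 39 could be tested (Ifit1bl1 was below the filter), 38 had lower fitted levels in KO, 20 at an unadjusted p under 0.05 (against 2.88% of all genes tested), and 9 had all KO below all WT mice (against 3.6% of all genes tested); none was called (lowest edgeR adjusted p = 0.560). DESeq2 called 1, Isg15 (15 of 21700 over all genes), and edgeR without the filter on low counts called 11 of 40 (105 of 21700 over all genes, 52 of them lower). With sex as a term 26 had lower levels at an unadjusted edgeR p under 0.05 (against 2.97% of all genes) and none was called. The median log2 fold change was -0.59, against 0.004 over all genes tested. The mean log2(CPM + 1) of the list was 4.98, 5.15, 5.86 and 5.67 in KO replicates 1 to 4 and 6.502, 5.89 and 5.74 in WT replicates 1 to 3. WT replicate 1 was highest, and KO replicate 3 lay above WT replicate 3. WT replicate 1 also had the highest sum of mo-DC and monocyte markers in its cDC1, 1238 CPM against 459.7 to 736 CPM in the other 6 mice; their part in this result was not tested. Without WT replicate 1, 35 of 39 genes were lower, 7 of them at an unadjusted p under 0.05 (against 2.23% of all genes), and the median was -0.36. Without KO replicate 1, and likewise without KO replicate 2, 11 genes had such a p (against 2.67% and 2.37% of all genes), with medians of -0.51 and -0.53. Without the cDC1 that held a T cell UMI 9 genes had such a p (against 2.56% of all genes), with a median of -0.49. In each of these 3 settings 38 of 39 genes were lower. With equal cell numbers per mouse 32 of 34 genes were lower, 9 of them at such a p (against 2.81% of all genes), with a median of -0.52. The number at such a p was 24 without KO replicate 3, 19 without KO replicate 4, 23 without WT replicate 2, 23 without WT replicate 3 and 23 in G1 cells alone. Over all genes the shares lower at such a p were 2.88%, 3.59%, 2.50%, 2.65% and 3.58% in the same order. Within sex the median difference was -0.39 in males (2 KO, 2 WT; 37 of 39 lower) and -0.78 in females (2 KO, 1 WT; 37 of 39 lower).

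Start site regions of 5 of these genes are shown because each holds the core of the interferon-stimulated response element. A script searched RefSeq windows of 250 bases before to 50 bases after the start site (build GRCm38.p6) for this core, written as GAAA, any 2 bases and GAAA again, on both strands; overlapping matches were allowed. The letters below are 5′ to 3′ along the strand of the gene, and the capitals mark 1 match in each stretch. Its repeats read TTTC where it lies on the other strand. The Isg15 and Ifit1 stretches hold further matches, which are left in lower case. All 5 stretches lie upstream of the start site, outside the transcript. They belong to Isg15, a ubiquitin-like protein (chr4:156200846-156200925, minus strand), Rsad2, the antiviral enzyme viperin (chr12:26456528-26456607, minus), and Ifit1, a sensor of viral RNA (chr19:34640769-34640848, plus). The others are those of Trim30a, a tripartite motif protein (chr7:104465194-104465264, minus), and Ifi211, a member of the Ifi200 family (chr1:173913047-173913118, minus).
Isg15: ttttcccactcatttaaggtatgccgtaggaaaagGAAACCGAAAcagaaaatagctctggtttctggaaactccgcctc
Rsad2: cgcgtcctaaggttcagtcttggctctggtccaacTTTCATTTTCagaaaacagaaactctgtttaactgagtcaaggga
Ifit1: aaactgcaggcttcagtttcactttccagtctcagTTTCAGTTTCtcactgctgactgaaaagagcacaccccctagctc
Trim30a: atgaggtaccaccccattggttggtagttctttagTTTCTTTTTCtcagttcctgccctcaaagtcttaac
Ifi211: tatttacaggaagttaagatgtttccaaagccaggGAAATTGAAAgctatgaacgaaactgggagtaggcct
The element was found in 20 of 37 windows (54.1%) of the 30 listed genes that matched RefSeq, and in 3.44% of all 32851 windows. The Irf8 and Pu.1 composite element (GGAA, any 2 bases and GAAA) was found in 3 of the 37 (8.11%; all windows 2.72%), and the AP-1 element TGANTCA, to which Batf3 binds with Jun proteins, in 7 (18.9%; all windows 7.81%). Of the first 60 genes by rank that were higher in cDC1 than in both other types, 48 matched with 59 windows, of which 3 (5.08%), 1 (1.69%) and 3 (5.08%) held these motifs in the same order. A match is a run of letters and not a bound site.

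Isg15 had 159.5, 169, 299.95 and 255 CPM in cDC1 of KO replicates 1 to 4 and 787, 484 and 362 CPM of WT replicates 1 to 3 (log2 fold change -1.30, SE 0.31, edgeR adjusted p = 0.684). Rsad2 had 14.0, 12.0, 19.3 and 25.2 CPM against 46.3, 34.3 and 31.6 CPM (-1.06, SE 0.25, edgeR adjusted p = 0.560). Usp18, the protease that removes Isg15 from proteins and dampens the receptor, had 33.3, 33.9, 81.7 and 68.7 CPM against 137, 89.4 and 83.4 CPM. For these 3 genes every KO mouse lay below every WT mouse, though KO replicate 3 came close to WT replicate 3 for Usp18. Irf7, a transcription factor that amplifies the interferon response, had 248, 257, 554 and 442 CPM against 1022, 527 and 439 CPM and overlapped between the groups.

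**Figure D5:**
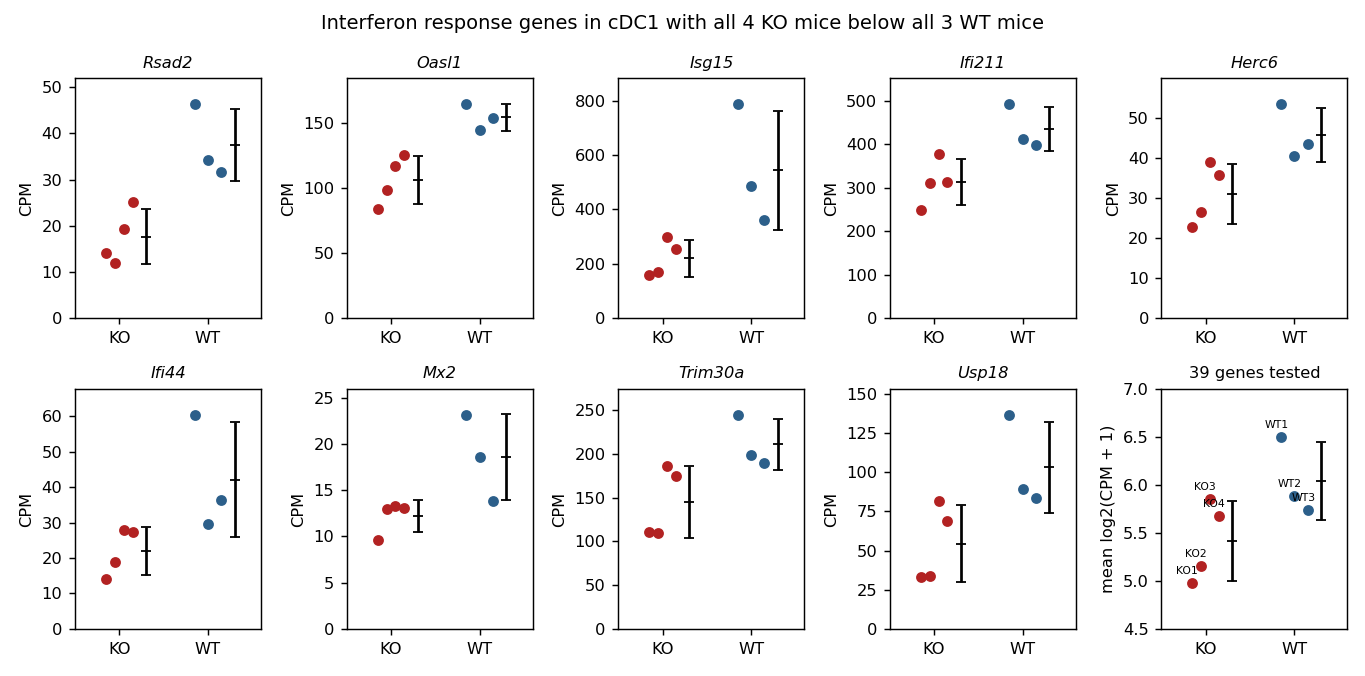
CPM in cDC1 by mouse for the type I interferon response genes whose 4 KO values lie below the 3 WT values, and in the last panel the mean log2(CPM + 1) of the 39 genes tested; points are mice, and the bars beside them give the mean and SD. Isg15 spans 159.5 to 299.95 CPM in KO and 362 to 787 CPM in WT mice, whereas the mean of the list overlaps.

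In the other dendritic cells of these mice, in fits of their own, 31 of 32 genes tested had lower fitted levels in KO in cells named cDC2, with a median log2 fold change of -0.97, and 40 of 40 in mo-DC, with a median of -1.09; 0 were called in either fit. The 3 fits share their mice and are not independent. The difference of the genotype effects was tested with 1 term per mouse. The fold change was less negative in cDC1 than in cells named cDC2 for 32 of 38 genes, and than in mo-DC for 38 of 40. In either direction, 4 of the 38 and 11 of the 40 had an unadjusted edgeR p under 0.05 (against 6.3% and 4.86% of all genes). No difference was called in either test (lowest edgeR adjusted p = 0.731 and 0.880). Irf7 had -0.82 in cDC1, -1.44 in cells named cDC2 and -1.46 in mo-DC.

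No gene was called in the remaining lists. The shares over all genes at an unadjusted p under 0.05, 2.95% higher and 2.88% lower, stand beside the counts that follow. Of 18 cDC1 markers 12 were lower in KO, 2 at an unadjusted p under 0.05. Batf3 had 117, 125, 136 and 128 CPM in KO replicates 1 to 4 and 150.5, 184 and 149 CPM in WT replicates 1 to 3 (-0.35, SE 0.12, edgeR adjusted p = 0.732), so that the groups did not overlap. Xcr1 had 293 to 346 CPM against 269 to 396 CPM (-0.10, SE 0.14), Clec9a 180 to 283 against 222 to 305 CPM (-0.21, SE 0.17) and Irf8 1205 to 1558 against 1477 to 1519 CPM (-0.13, SE 0.10). These 3 overlapped between the groups. Lineage factors had 1 of 20 lower at an unadjusted p under 0.05 and uptake genes had 1 of 21 higher at such a p (Itgav, an integrin chain that binds dying cells through bridging proteins).

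In antigen presentation, 2 of 20 MHC class I genes were higher in KO at an unadjusted p under 0.05. Tap1, the peptide transporter, had 447, 408, 439 and 420.3 CPM against 339, 366 and 344 CPM (0.29, SE 0.10, edgeR adjusted p = 0.732), and H2-Q4 had 252 to 285 against 184 to 248 CPM (0.38, SE 0.13). Both were without overlap. Class II had 1 of 15 higher at such a p (H2-DMb2, a peptide exchange factor), and H2-Ab1 overlapped, with 7945 CPM ± 1541 (SD, n = 4) against 7309.9 CPM ± 644 (n = 3).

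Of 19 chemokine genes 7 were higher and 12 lower, with 1 each at an unadjusted p under 0.05. Cxcl10, a T cell attractant, had 55.2, 35.4, 22.25 and 41.9 CPM in KO replicates 1 to 4 and 75.9, 57.3 and 77.8 CPM in WT replicates 1 to 3 (-0.90, SE 0.24, edgeR adjusted p = 0.684). Cxcl16, the ligand of Cxcr6, had 342, 339, 338 and 376 CPM against 270.4, 319 and 255 CPM (0.31, SE 0.11, edgeR adjusted p = 0.756). The groups did not overlap for either. For Cxcl16 the log2 fold change was -0.27 in cells named cDC2 and -0.22 in mo-DC, and the difference from cDC1 had an edgeR unadjusted p of 0.00134 and 0.00102 (adjusted 0.621 and 0.688). Of 12 cytokines 4 were higher and 8 lower, with 1 each at an unadjusted p under 0.05. Tnfsf13b, the B cell survival factor BAFF, had 24.5, 27.3, 16.3 and 20.7 CPM in KO replicates 1 to 4 and 12.3, 13.4 and 17.4 CPM in WT replicates 1 to 3, with overlap (0.63, SE 0.21, edgeR adjusted p = 0.732). Il15, which sustains CD8 T and NK cells, had 7.01, 7.09, 10.7 and 8.09 CPM against 15.7, 13.0 and 15.7 CPM (-0.85, SE 0.21, edgeR adjusted p = 0.562), without overlap. Il12b spanned 8.56 to 85.9 CPM in KO and 49.0 to 114 CPM in WT mice.

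Of 23 maturation genes 19 were lower in KO, 5 at an unadjusted p under 0.05, with a median of -0.40. In fits of the other types, 22 of 25 were lower in cells named cDC2 (median -0.36) and 18 of 23 in mo-DC (median -0.32). In cDC1, Ccr7 had 26.3, 15.9, 2.14 and 63.3 CPM against 58.7, 70.5 and 58.7 CPM (-1.17, SE 0.78, edgeR adjusted p = 0.881) and overlapped through KO replicate 4. Relb, an NF-kB subunit needed for maturation, had 27.7 to 35.9 CPM against 41.2 to 46.6 CPM (-0.40, SE 0.13), without overlap. Of 16 costimulation genes 7 were higher and 9 lower. At an unadjusted p under 0.05 these included 1 higher gene, Icosl (47.1 to 77.0 against 37.9 to 45.8 CPM, no overlap), and 2 lower genes, Cd200 and Cd40 (35.4 to 43.5 against 43.5 to 68.5 CPM). The log2 fold change of Cd40, -0.48, turned to 0.40 with equal cell numbers per mouse.

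Of 21 sensing genes 5 were lower at an unadjusted p under 0.05. Tlr12, the partner of Tlr11, had 16.5 to 28.2 CPM in KO and 26.3 to 35.4 CPM in WT mice, and the adaptor Myd88 had 83.4 to 98.2 against 100.3 to 124 CPM. Only the latter was without overlap. Of 26 genes of the interferon gamma response 21 were lower, 5 of them and 2 of the higher ones at an unadjusted p under 0.05, with a median of -0.25. Their mean log2(CPM + 1) was 5.12 to 5.40 in KO mice and 5.33, 5.36 and 5.88 in WT replicates 1 to 3. Within sex the median difference was -0.02 in males (13 of 26 lower) and -0.74 in females (21 of 26 lower), where WT replicate 3 is the only WT mouse. In fits of the other types, 22 of 23 interferon gamma genes were lower in KO in cells named cDC2 (median -0.59). In mo-DC 24 of 26 were lower (median -0.48). In cDC1, proliferation genes had 0 of 24 at an unadjusted p under 0.05 and a median of 0.01. Of 17 glycolysis and hypoxia genes 16 were lower in cDC1, 2 at such a p. In the other fits 14 of 15 were lower in cells named cDC2 (median -0.34) and 16 of 17 in mo-DC (median -0.20).

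Markers of other cells were read beside these values. The cDC2 markers had higher fitted levels in KO for 10 of 10 genes tested, 1 (Tnfsf13b) at an unadjusted p under 0.05, and summed to 210.1 to 273 CPM in KO and 177 to 226 CPM in WT cDC1. Their mean log2(CPM + 1) overlapped, at 3.57 ± 0.60 in KO and 3.43 ± 0.13 in WT mice, with KO replicate 3 lowest at 2.85. Within sex 4 of 10 were lower in KO in females and 4 of 10 in males. Mo-DC and monocyte markers were higher for 8 and lower for 3 of 11 and summed to 606 to 723 CPM in KO and 459.7, 736 and 1238 CPM in WT mice. Microglia markers summed to 180.04 to 236 and 192 to 248 CPM, and plasmacytoid dendritic cell markers to 46.3 to 81.3 and 57.5 to 112 CPM. Macrophage markers summed to 149 to 935 CPM in KO and 364 to 743 CPM in WT cDC1, B cell markers to 58.8 to 87.7 and 63.7 to 122 CPM, and NK cell markers to 2.51 to 26.7 and 5.16 to 28.5 CPM, all with overlap. Neutrophil, tumour and stromal markers summed to at most 7.49 CPM in any mouse, and mast cell and basophil markers were at 0 in 5 mice, 0.519 CPM in KO replicate 2 and 25.8 CPM in WT replicate 1. Their part in the comparison was not tested.

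Whether the genotype effect itself differed between cDC1 and the other types was tested over all genes. Against cells named cDC2, 0 of 10230 genes were called (0.0%) in edgeR and 644 (6.3%) had an unadjusted p under 0.05; DESeq2 called 1, Dusp2. Dusp2, a phosphatase of MAP kinases, had 158 CPM ± 21.2 in KO and 154 CPM ± 41.4 in WT cDC1, a log2 fold change of 0.04 against -0.81 in cells named cDC2 (difference 0.90, edgeR adjusted p = 0.342). Cpne2, a calcium-dependent membrane-binding protein, had 0.08 and -0.69, and Zfand6, a zinc finger protein, -0.09 and -0.87.

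Against mo-DC, 4 of 11456 genes (0.0349%) were called, all for immunoglobulin chains, and 557 (4.86%) had an unadjusted p under 0.05. The differences were 8.78 for Igkv13-84 (edgeR adjusted p = 6.68e-06), 9.03 for Ighv1-80 (0.000722), 8.98 for Igkv6-25 (0.00121) and 2.28 for Ighg2b (0.0033). In mo-DC of WT replicate 2, 5868 of 5909 Igkv13-84 UMIs, 7371 of 7384 Igkv6-25 UMIs, 5251 of 8101 Ighv1-80 UMIs and 566 of 634 Ighg2b UMIs were in 1 cell for each gene. Ighg2b was also found in KO replicate 4, with 350 UMIs in 57 of its mo-DC and 149 UMIs in 115 of its cDC1. Without WT replicate 2 no gene was called, DESeq2 called 0, and without KO replicate 4 edgeR called 2. Without cells above the 95th percentile of UMIs the differences were -0.34 for Igkv6-25 and -0.0902 for Ighg2b, and none of the 4 genes was called. Next in rank, Ptgs1, a cyclooxygenase, had a log2 fold change of -0.98 in cDC1 and 1.02 in mo-DC (difference -1.97, edgeR adjusted p = 0.357), and Specc1 had 0.49 and -0.49 (edgeR adjusted p = 0.388).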

How the data were processed

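Cells sorted from 7 mice (4 KO, 3 WT) were sequenced in 1 library per mouse. The authors deposited a matrix of unscaled expected counts, UMIs of each gene in each cell that are partly fractional, and a cell table with the count of detected genes, mitochondrial and ribosomal percent, library, cell type name and phase. FastQC 0.11.5, STARsolo, STAR 2.7.10a and mm10 are named in the submitters' processing notes; cell filters, doublet handling and the naming method are not given in the sources used here, and no doublet caller was run.

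UMIs were summed per mouse and type (at least 20 cells; all 7 mice passed) and rounded. The cDC1 sums held 1197507 to 5777658 UMIs per mouse. Genotypes were compared in edgeR 4.0.16 (TMM, filterByExpr, robust quasi-likelihood; Benjamini-Hochberg adjusted p under 0.05), and the difference between types with mouse, type and type-by-genotype terms. Types were compared on log2(CPM + 10) within each mouse, over genes with a mean of 10 CPM or more in either type, without a test; a mean difference of 2-fold was counted. Shares were compared by exact permutation over mice. Intervals of cell shares cover counting error only. The scripts were tested on simulated data. DESeq2 1.42.0 was an alternative, with filters, scaling, phase, sex, equal cell numbers and leaving out each mouse as others.

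Genes named are those called, the lowest unadjusted p among genes without overlap (10 in each direction), the lowest 5 in each difference between types, the 12 widest differences between types in each direction, members of the lists, and Siglece. Some genes that meet this rule are not reported here. Members and lists were chosen with earlier results of these data known. The labels do not state that mice with the same number are paired, and the main fit holds no term for the number. Sequences are from RefSeq.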

Additional observations from a re-analysis of the deposited data

Results flagged for a closer look

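In the 4 KO mice, 10 of 101 groups of values held 1 mouse farther from the others than Dixon's 95% critical value of 0.829 allows. For a single group chance gives about 1 in 20. Many of the groups are genes picked for a low unadjusted p between KO and WT, and all groups share the same 4 mice. The count can therefore not be read against that rate. KO replicate 2 was lowest for Dynll1 (168.41 CPM; next 199 CPM), Relb (27.675 CPM; next 35.1 CPM), the glycolytic kinase Hk2 (16.2 CPM; next 20.9 CPM) and the mean log2(CPM + 1) of the interferon gamma response (5.118; next 5.352). KO replicate 3 was highest for the cDC1 marker Ifi205 (1045.7 CPM; next 799 CPM) and for the interferon-induced GTPases Ifi47 (100.55 CPM; next 60.1 CPM) and Tgtp2 (62.899 CPM; next 37.1 CPM). KO replicate 4 was highest for Cxcl16 (376.28 CPM; next 342 CPM) and the mean of MHC class I presentation genes (8.696; next 8.549), and KO replicate 1 lowest for the antiviral GTPase Mx2 (9.6404 CPM; next 13.0 CPM).

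The genotype effect differed between cDC1 and mo-DC, by the edgeR test of the difference, for the immunoglobulin genes Igkv13-84 (8.78), Ighv1-80 (9.03), Igkv6-25 (8.98) and Ighg2b (2.28), each on the log2 scale. In mo-DC of WT replicate 2, 1 cell held 5868 of 5909 Igkv13-84, 5251 of 8101 Ighv1-80, 7371 of 7384 Igkv6-25 and 566 of 634 Ighg2b UMIs, counted for each gene on its own. DESeq2 called 0 of these differences, and 0 were called without WT replicate 2. Without cells above the 95th percentile of UMIs Igkv6-25 had -0.34 and Ighg2b -0.0902.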

How the results depend on the processing

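Genes called between KO and WT cDC1 numbered 0 in edgeR, 15 in DESeq2, 105 without a filter on low counts, 1 without genes whose values are not whole and 0 to 3 when 1 mouse was left out (3 without KO replicate 4, 2 without WT replicate 1, 1 without WT replicate 3). With the replicate block the count was 13. Same-numbered mice correlated at 0.020, 0.004 and -0.219 in their deviations, and mice with different numbers at -0.206 to 0.214. So few pairs cannot show whether mice with the same number shared their handling. The difference from cells named cDC2 had 0 calls, 1 in DESeq2 and 33 without the filter. That from mo-DC had 4 calls, 0 in DESeq2, 2 without cells above the 95th percentile of UMIs (both with a negative difference, where the 4 were positive), 2 without genes whose values are not whole, 23 without the filter and 0 to 4 with 1 mouse left out (2 without KO replicate 4, 0 without WT replicate 2). Genes higher than in both types numbered 133, 272 with a pseudocount of 1 CPM and 124 to 147 with 1 mouse left out. Cd40 turned to 0.40 with equal cell numbers, and Igkv6-25 and Ighg2b to -0.34 and -0.0902 without cells above the 95th percentile. The causes were not tested. Over single genes and list medians, 1807 settings counted as the same. For a gene this means the same side of the threshold, and for a list median a shift smaller than the SD between mice. The median over all genes was counted here without a rule. Of the others, 61 passed the threshold newly, 10 lost it and 26 were list medians that moved further. The cDC1 shares of all cells, of cDC1 and cells named cDC2 together and of all dendritic cells kept their direction in every setting. The share in S or G2M phase was not put through these settings. Siglece, with 1 to 12 UMIs per mouse in cDC1, was below the filter on low counts.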
